A study of Mus musculus with 6 samples.

Results

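Elastic fibres give the aorta its recoil, and the 10 genes described here encode the fibre and the enzymes that cross-link it: *Eln*, *Fbn1*, *Mfap4*, *Mfap5*, *Fbln1*, *Fbln2*, *Fbln5*, *Emilin1*, *Lox* and *Loxl1*. They were taken as a set by name, for their place in the fibre, and the rule sets no threshold on their values. All 10 were among the 55341 genes of the count table, and all 10 were among the 16017 genes that had enough reads to be tested. RNA was sequenced from aortic vessels of 3 miRNA-26b-/- mice (libraries M2626, M2627 and M2628) and 3 miRNA-26b+/+ mice (M2629, M2630 and M2631), and the comparison asks which transcripts differ when this microRNA is missing.

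Both groups were C57BL/6NCrl mice by the labels, and by the study's methods they were 8 weeks old and fed a normal laboratory diet. The miRNA-26b-/- mice carried a deletion of the microRNA in an intron of its host gene *Ctdsp1*, which removes both mature arms. The deletion began with gene targeting in embryonic stem cells of 129/Sv origin and was completed by a tamoxifen-activated Cre recombinase that was afterwards bred out. The study describes its first strains as a mix of 129/Sv and C57BL/6, and the mice used as being on C57BL/6. Whether the genetic background differed between the groups was not tested. The mice were perfused with saline, and the arch and thoracic part of the aorta were taken. The labels name the sample as endothelial cells instead. The libraries did not have the makeup of isolated endothelium: 12 contractile smooth muscle genes, led by *Myh11* and *Acta2*, summed to between 35078 and 45372 CPM (the reads of a gene scaled to 1000000 reads counted in its library), whereas 10 endothelial genes, led by *Vwf* and *Pecam1*, summed to between 589 and 1942 CPM. The libraries held between 25706728 and 33345037 counted reads.

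Elastin is secreted by smooth muscle cells and fibroblasts as a soluble monomer, tropoelastin. The monomers are laid down on a scaffold of microfibrils made chiefly of fibrillins, with the help of fibulins that bind both partners, and lysyl oxidases then join them into an insoluble polymer. In the aorta the polymer forms concentric lamellae between layers of smooth muscle. Most of it is made around birth and in early growth, and it is replaced very slowly afterwards.

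*Eln* and *Mfap4* were the 2 of 10 members in which the groups differed at an unadjusted p under 0.05, beside 6.47% of all genes tested. *Eln* was 1.35-fold higher in the miRNA-26b-/- libraries and *Mfap4* was 1.38-fold higher, and in both genes every miRNA-26b-/- library lay above every miRNA-26b+/+ library, beside 6.13% of all genes. Neither passed adjustment for the 16017 genes tested. The other 8 members did not differ in the test, and 5 of them (*Fbn1*, *Fbln1*, *Fbln2*, *Fbln5* and *Lox*) had miRNA-26b-/- libraries on both sides of the miRNA-26b+/+ range, beside 23.5% of all genes.

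The deleted microRNA and its relation to these transcripts are shown by sequence, because a microRNA pairs with messenger RNAs mainly through its seed, bases 2 to 8 from its 5′ end. The mature sequences are those of RefSeq, given 5′ to 3′ with the seed in capitals. The related miRNA-26a, made from other loci, has the same seed.
mmu-miR-26b-5p: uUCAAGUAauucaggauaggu
mmu-miR-26a-5p: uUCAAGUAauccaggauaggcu
mmu-miR-26b-3p: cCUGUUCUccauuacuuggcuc
The 5p arm lies at chr1:74394324-74394344 on the plus strand of GRCm38. MicroRNA hairpins are poorly captured by libraries made from long RNA. *Mir26b* had 0 counts in M2626, M2627 and M2628, 0 in M2629, 20 in M2630 and 0 in M2631. The counts therefore did not separate the groups, as miRNA-26b+/+ libraries were at 0 too. The study itself reported from real-time PCR that the knockout mice lacked the 3p and the 5p product. *Ctdsp1*, whose transcript carries the microRNA in its intron, was at 189 ± 9.75 CPM (SD, n = 3) in miRNA-26b-/- and 163 ± 12.8 CPM (SD, n = 3) in miRNA-26b+/+ libraries and was not called (log2 fold change 0.20, adjusted p = 0.866 in edgeR's quasi-likelihood test).

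Letters complementary to the 5p seed were searched on the sense strand of the longest annotated 3′ UTR of each of 21028 genes, as TACTTGAA, TACTTGA or ACTTGAA, each position being counted once under the longest of them. Of the 10 members 1, *Lox*, had such a match, with 1 TACTTGA and 1 ACTTGAA in a UTR of 3160 bases. Over all genes searched 18.3% had at least 1 match, but their median UTR was 960.5 bases, shorter than that of *Lox*. The shorter ACTTGA was present 1 more time in *Lox*. *Mfap5* had only this shorter match, which 19.6% of all genes held outside a longer match. That site is at chr6:122528685-122528690 on the plus strand of GRCm38 and is shown with its flanks, the matched letters in capitals, as the only match besides those of *Lox*.
Mfap5 3′ UTR: aggatggccACTTGActtagatac
*Eln* and *Mfap4*, the genes that differed, had none of these letters in 3′ UTRs of 1188 and 899 bases. A match is a string of letters and says nothing of binding, and the lack of one says only that these letters are not in the annotated window.

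*Eln* (ENSMUSG00000029675, chr5:134702593-134747323, minus strand of GRCm38) encodes tropoelastin, the monomer of the elastic core. It was at 5590, 6722 and 7423 CPM in M2626, M2627 and M2628, and at 4748, 4805 and 4950 CPM in M2629, M2630 and M2631. The 3 miRNA-26b+/+ libraries thus lay close together, while the miRNA-26b-/- libraries were all higher and spread more widely. The means were 6578 ± 925 CPM and 4834 ± 104 CPM (SD, n = 3 each), with a coefficient of variation of 14.1% in miRNA-26b-/- and 2.16% in miRNA-26b+/+. The log2 fold change was 0.43 ± 0.12 (SE), a fold of 1.35 with a 95% interval from 1.12 to 1.62. In edgeR's quasi-likelihood test p was 0.00371 and the Benjamini-Hochberg adjusted p was 0.731. The exact two-sided permutation test of the CPM values gave p = 0.1, the smallest that 3 libraries against 3 allow. *Eln* was among the most abundant transcripts of the tissue, ranking 4th to 13th of all genes in the 6 libraries. An antisense gene, *Gm30003*, shares 267 exonic bases with it and had at most 999 counts, and the counting did not use strand.

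*Mfap4* (ENSMUSG00000042436, chr11:61485431-61488900, plus strand of GRCm38) encodes a small fibrinogen-related glycoprotein that binds tropoelastin and fibrillin microfibrils. Its levels were 895, 1057 and 1119 CPM in M2626, M2627 and M2628, against 671, 762 and 764 CPM in M2629, M2630 and M2631. As with *Eln*, the groups did not overlap, and within the miRNA-26b-/- group M2626 was lowest and M2628 highest. The means were 1024 ± 116 CPM and 732 ± 53.5 CPM (SD, n = 3 each). The log2 fold change was 0.47 ± 0.13 (SE), a fold of 1.38 with a 95% interval from 1.14 to 1.68. The quasi-likelihood test of edgeR gave p = 0.00305 and an adjusted p of 0.731, and the exact permutation p was 0.1. Exons of a neighbour, *Mapk7*, share 89 bases with those of *Mfap4*. Reads there were counted for both genes. *Mapk7* had 900, 993 and 679 counts in M2626, M2627 and M2628 and 591, 428 and 466 in M2629, M2630 and M2631. It was thus also higher in miRNA-26b-/-, while *Mfap4* had from 20265 to 35252 counts.

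These calls stand beside a background that was not small. Of all genes tested, 3.4% had an unadjusted p under 0.05 while being higher in miRNA-26b-/-, against 2 of the 10 members. Libraries of the 2 genotypes did not overlap, in either direction, in 11.7% of genes. By adjusted p in edgeR, 0.00624% of genes were called (1 gene) and 0 members were called, with 2 members at an unadjusted p under 0.05. *Eln* ranked 78th and *Mfap4* 62nd of all genes by p. DESeq2 gave adjusted p-values of 0.0414 for *Eln* and 0.0381 for *Mfap4*, and called 0.358% of 15906 genes. The median log2 fold change was -0.02 over the 10 members and 0.01 over all genes tested. These are levels in whole vessel RNA, in which fewer cells of a type and less RNA per cell cannot be told apart.

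**Figure D1:**
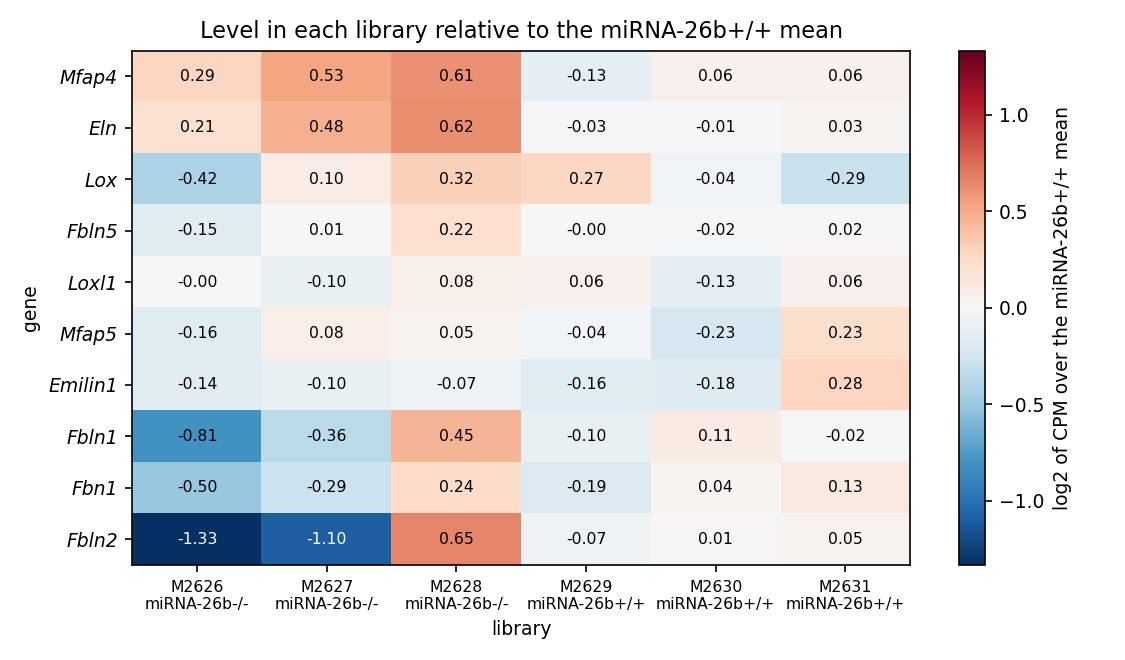
Level of each elastic fibre gene in each library, as log2 of its CPM over the mean of the 3 miRNA-26b+/+ libraries. Rows are genes, columns are libraries, and each cell holds its value, in red above that mean and in blue below it. For *Eln* and *Mfap4* all 3 miRNA-26b-/- values are above the miRNA-26b+/+ values. For *Fbln2* the values of M2626 and M2627 are far below and that of M2628 is above.

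*Fbn1* (chr2:125300594-125507993, minus strand) encodes fibrillin, the main structural protein of the microfibril. It was at 519, 603 and 871 CPM in M2626, M2627 and M2628 and at 645, 756 and 807 CPM in M2629, M2630 and M2631. The miRNA-26b-/- libraries therefore fell on both sides of the control range, with M2628 above it and the other two below. The log2 fold change was -0.17 ± 0.17 (SE) with a 95% interval from -0.54 to 0.20, and edgeR gave an adjusted p of 0.93 (exact permutation p = 0.6). *Gm9913* shares 2442 exonic bases with *Fbn1* and had between 41 and 601 counts.

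*Mfap5* (chr6:122505845-122529290, plus strand) encodes a small glycoprotein attached to fibrillin in the microfibril. Its levels were 241, 286 and 279 CPM in M2626, M2627 and M2628, and 263, 230 and 317 CPM in M2629, M2630 and M2631. The groups overlapped throughout, and the means of 269 ± 24.2 and 270.1 ± 43.7 CPM (SD, n = 3 each) differed by less than the spread within either group. Its 95% interval for the log2 fold change ran from -0.35 to 0.30, around an estimate of -0.02. The exact permutation p was 1. Of the 3 microfibril genes *Mfap4* was thus higher, while no difference was detected in *Fbn1* or *Mfap5*, and whether their changes differ from each other was not tested.

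Of the 3 fibulins, *Fbln5* is the one that tethers tropoelastin to the microfibril and to the cell surface and is required for organised fibres. *Fbln5* (chr12:101746565-101819055, minus strand) was at 820, 913 and 1059 CPM in M2626, M2627 and M2628. In M2629, M2630 and M2631 it was at 908, 900 and 919 CPM. The miRNA-26b+/+ libraries were almost equal, with a coefficient of variation of 1.08%, against 12.9% in miRNA-26b-/-. The log2 fold change was 0.02 ± 0.13 (SE), with a 95% interval from -0.25 to 0.29 and an adjusted p of 0.993 in edgeR (exact permutation p = 0.8).

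*Fbln2* (chr6:91212455-91272540, plus strand) encodes a fibulin found along elastic fibres and at the inner elastic lamina, made by fibroblasts and endothelium among other cells. It varied more than any other member: 108 CPM in M2626, 127 CPM in M2627 and 428 CPM in M2628, against 260, 275 and 282 CPM in M2629, M2630 and M2631. Relative to the miRNA-26b+/+ mean these are 39.7%, 46.6% and 157% in the miRNA-26b-/- libraries, so that 2 libraries were below every control and 1 above every control. The coefficient of variation was 81.2% in miRNA-26b-/- and 4.11% in miRNA-26b+/+. With all libraries the log2 fold change was -0.32 ± 0.36 (SE) with a 95% interval from -1.08 to 0.44, an adjusted p of 0.932 in edgeR and an exact permutation p of 0.7.

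*Fbln1* (chr15:85205949-85286535, plus strand), a fibulin of elastic fibres and basement membranes, followed the same order. It was at 207, 283 and 496 CPM in M2626, M2627 and M2628 and at 339, 391 and 358 CPM in M2629, M2630 and M2631. The log2 fold change was -0.16 ± 0.23 (SE) with a 95% interval from -0.65 to 0.33, an adjusted p of 0.949 in edgeR and an exact permutation p of 0.8. *Emilin1* (chr5:30913402-30921277, plus strand), which encodes a glycoprotein at the boundary of elastin and microfibrils, had the same order in miRNA-26b-/- but with little spread. Its levels were 275, 283 and 288 CPM in M2626, M2627 and M2628 and 271, 268 and 368 CPM in M2629, M2630 and M2631. Here the spread was in the controls, with a coefficient of variation of 18.9% against 2.33% in miRNA-26b-/-, and the log2 fold change was -0.12 ± 0.15 (SE), with a 95% interval from -0.45 to 0.21. The adjusted p was 0.941 in edgeR and the exact permutation p was 1.

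Lysyl oxidases oxidise lysines of tropoelastin and of collagen, after which the cross-links form. *Lox* (minus strand of chromosome 18, positions 52516067 to 52529867) was at 380, 544 and 633 CPM in M2626, M2627 and M2628 and at 613, 495 and 415 CPM in M2629, M2630 and M2631. Its groups overlapped fully, and the log2 fold change was 0.02 ± 0.18 (SE) with a 95% interval from -0.36 to 0.40. *Loxl1* (chr9:58287738-58313186, minus strand), the family member that is targeted to elastic fibres, was at 508, 475 and 537 CPM in M2626, M2627 and M2628. In M2629, M2630 and M2631 it was at 532, 465 and 531 CPM. Of the 10 members *Loxl1* had the smallest spread over the 6 libraries, its highest being 1.16 times its lowest, and its log2 fold change was -0.02 ± 0.13 (SE) with a 95% interval from -0.30 to 0.25. Adjusted p-values in edgeR were 0.995 for *Lox* and 0.991 for *Loxl1*, and the exact permutation p-values were 0.9 and 1. The transcript of the monomer was thus higher in miRNA-26b-/- while no difference was detected in either oxidase. The interval of *Lox* reaches to just under the change of *Eln*, and whether the changes of these genes differ was not tested.

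Per length, the fibre genes spanned a wide range of levels. CPM divided by the exon length of the gene in kilobases put *Eln* first in miRNA-26b+/+, at 597 ± 12.9 CPM per kb (SD, n = 3), and *Mfap4* second at 381 CPM per kb. *Loxl1* followed at 154 and *Fbln5* at 132 CPM per kb, and these first 4 genes did not overlap with their neighbours in that order. *Lox* (106), *Fbln1* (83.0), *Mfap5* (75.2), *Emilin1* (61.2) and *Fbn1* (60.7 CPM per kb) came next, each overlapping with the next one over the libraries. *Fbln2* was lowest at 42.7 CPM per kb, below every library of *Fbn1*. In miRNA-26b-/- *Eln* was at 812 ± 114 and *Mfap4* at 533 CPM per kb. The exon length is that of all annotated isoforms together, 8098 bases for *Eln*, so a gene with many isoforms appears lower on this scale.

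**Figure D2:**
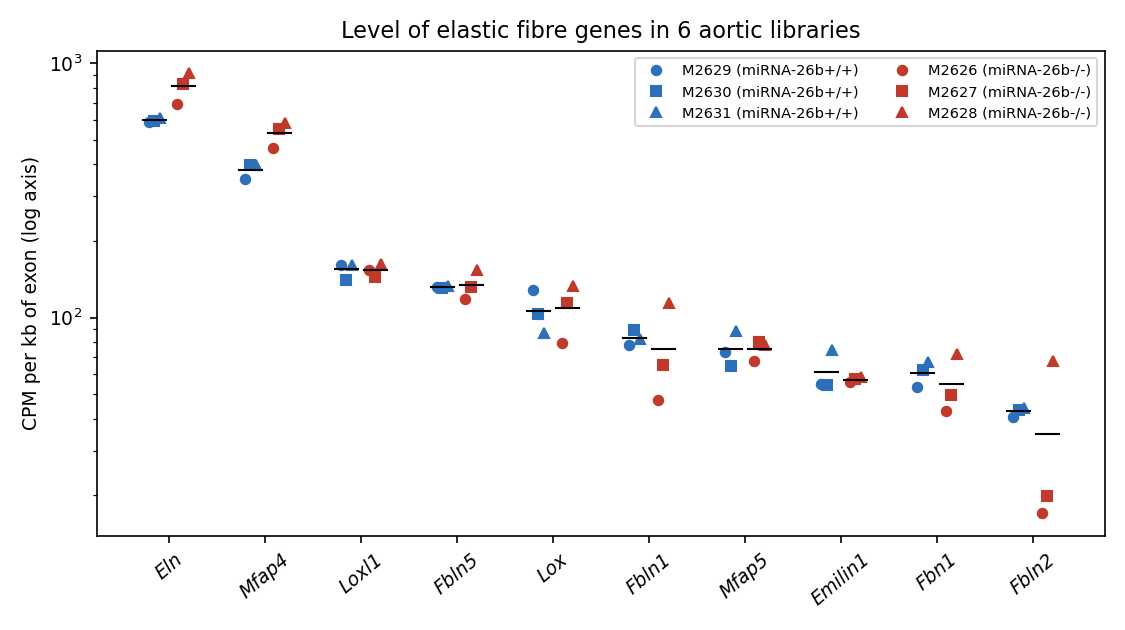
Level of each gene in CPM per kb of exon on a log axis, ordered by the miRNA-26b+/+ mean, with 1 point per library and a black line at each group mean. *Eln* and *Mfap4* stand above the other genes in both genotypes, and the *Fbln2* points of miRNA-26b-/- are the most widely spread.

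As a share of all reads, the 10 genes together took 0.954%, 1.13% and 1.31% in M2626, M2627 and M2628 and 0.925%, 0.935% and 0.971% in M2629, M2630 and M2631. Without *Eln* the other 9 summed to 3954, 4571 and 5710 CPM in miRNA-26b-/- and to 4502, 4542 and 4762 CPM in miRNA-26b+/+, and those ranges overlapped. The makeup of the set was therefore weighted more to *Eln* in the miRNA-26b-/- libraries. Of the summed level per kb, *Eln* made up 39.9 ± 0.72% in miRNA-26b-/- and 35.3 ± 0.21% in miRNA-26b+/+ (SD, n = 3 each), and *Mfap4* made up 26.2 ± 1.12% and 22.5 ± 1.31%. Shares of 1 total are tied to each other, so a higher share of *Eln* lowers the others.

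Ratios within a library do not depend on its scaling. *Eln* to *Fbln5* was 6.81, 7.36 and 7.01 in M2626, M2627 and M2628 and 5.23, 5.34 and 5.39 in M2629, M2630 and M2631, on CPM without length. The ratio thus varied little within a genotype, although both genes varied among the miRNA-26b-/- libraries. *Eln* to *Loxl1* was 11.0015, 14.2 and 13.8 against 8.93, 10.3 and 9.32, *Eln* to *Fbn1* was 10.8, 11.1 and 8.53 against 7.36, 6.35 and 6.13, and *Eln* to *Emilin1* was 20.4, 23.8 and 25.8 against 17.5, 17.96 and 13.5. *Eln* to *Mfap4* overlapped between the genotypes, at 6.25, 6.36 and 6.63 against 7.08, 6.30 and 6.48. *Eln* to *Lox* overlapped as well, at 14.7, 12.4 and 11.7 against 7.74, 9.70 and 11.9. These ratios were chosen with the values of *Eln* known and are given as descriptions.

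Within the miRNA-26b-/- group all members but *Mfap5* and *Loxl1* shared an order of libraries, rising from M2626 to M2627 to M2628. In *Emilin1* that rise was small, from 275 to 288 CPM. The share of all genes with the full order was not counted. Of the miRNA-26b-/- libraries M2628 was highest in 9 members, against 36.2% of all genes tested and 40.9% of the 793 genes described next. M2628 was the highest of the 6 libraries in 8 members, the exceptions being *Mfap5* and *Emilin1*, which were highest in M2631. Over all genes tested M2628 was highest in 21.1%, and in 17.8% of the 793 genes with a mean of at least 200 CPM. M2626 was the lowest of the 6 libraries in 5 members (*Fbn1*, *Fbln1*, *Fbln2*, *Fbln5* and *Lox*), against 20.7% of all genes and 21.8% of the 793. Of the miRNA-26b-/- libraries alone, M2626 was lowest in 9 members, all but *Loxl1*, against 34.9% of all genes and 30.5% of the 793. The coefficient of variation was larger in miRNA-26b-/- than in miRNA-26b+/+ in 7 of the 10 members. That held for 56.7% of all genes tested and for 62.0% of the 793, so the members were near that share.

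Summed markers of other cells of the vessel wall had the same order of libraries. In M2626, M2627 and M2628 the summed level of 14 adventitial fibroblast genes (led by *Gsn* and *Dcn*) was 5761, 6598 and 9828 CPM, against 7287 to 7893 CPM in miRNA-26b+/+. The 10 endothelial genes summed to 589, 663 and 1942 CPM, against 1399 to 1831 CPM, and 9 macrophage genes (led by *Csf1r* and *F13a1*) to 229, 287 and 773 CPM, against 432 to 531 CPM. *Fbln2*, *Fbln1* and *Fbn1* thus had the same order over these 3 libraries as each of the 3 sums, with M2628 above every miRNA-26b+/+ library. Single genes of the 3 lists departed from the order of their sum. In M2626, M2627 and M2628 endothelial *Kdr* was at 21.9, 29.8 and 8.92 CPM, with M2628 the lowest of the 6 libraries. In the same libraries *Pecam1* was at 184, 176 and 724 CPM, macrophage *Cd163* at 21.6, 13.5 and 80.5 CPM and fibroblast *Pcolce2* at 183, 161 and 233 CPM. Of the endothelial genes 2 of 10 (*Tek* and *Eng*) were lower in miRNA-26b-/- at an unadjusted p under 0.05, beside 3.07% of all genes, and of the fibroblast and macrophage genes 0 were called in edgeR. The summed smooth muscle genes, most of whose level comes from *Acta2*, *Myh11* and *Tagln*, had the opposite order, with 42929, 38786 and 35078 CPM in miRNA-26b-/- and 38187 to 45372 CPM in miRNA-26b+/+. Not every gene of that list had this order. *Myocd*, a coactivator that drives smooth muscle genes, was the 1 of 12 that was called, at 72.5, 91.1 and 144 CPM in M2626, M2627 and M2628 and 214, 197 and 181 CPM in M2629, M2630 and M2631 (log2 fold change -0.96 ± 0.20 SE, adjusted p = 0.453 in edgeR), and *Synpo2* was at 1192, 1216 and 1257 CPM in the miRNA-26b-/- libraries. *Myocd*, *Synpo2*, *Tagln*, *Tek*, *Eng*, *Kdr*, *Cd163* and *Pcolce2* were picked out after their values were seen. *Eln* over the summed smooth muscle genes was 0.130, 0.173 and 0.212 in M2626, M2627 and M2628 and 0.1243, 0.1248 and 0.109 in M2629, M2630 and M2631, and did not overlap. The part of these cell types in the results for the members was not tested.

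**Figure D3:**
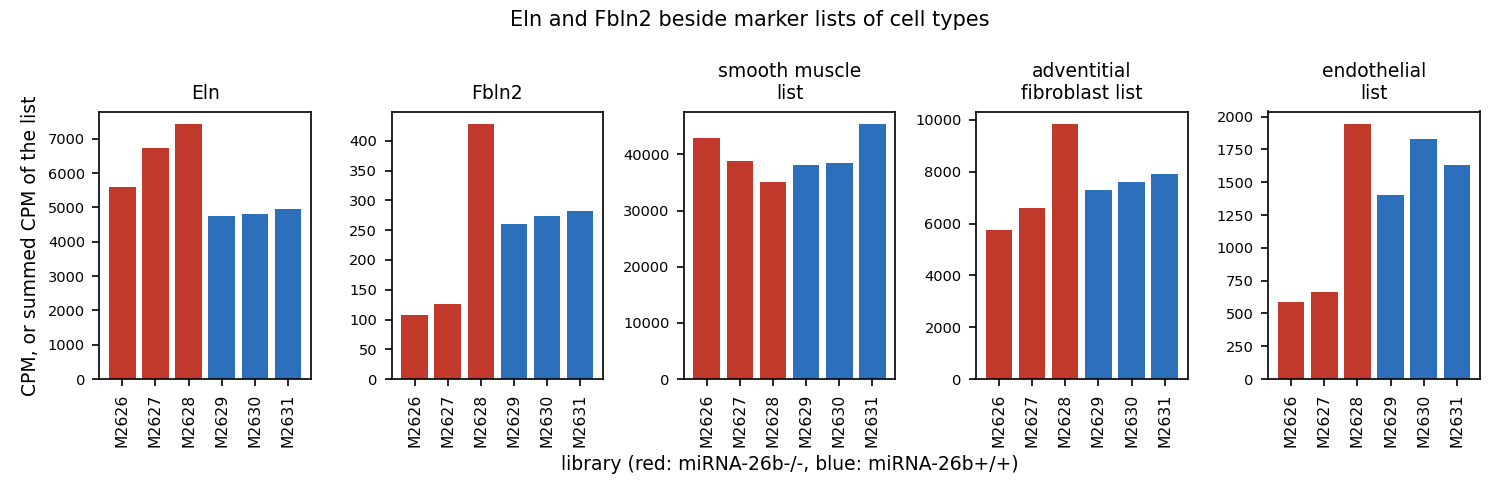
Bars from 0 give CPM in each of the 6 libraries for *Eln*, *Fbln2* and the summed smooth muscle, adventitial fibroblast and endothelial marker genes. *Fbln2*, the fibroblast sum and the endothelial sum are low in M2626 and M2627 and highest in M2628, the smooth muscle sum is lowest in M2628, and *Eln* is above the miRNA-26b+/+ libraries in all 3 miRNA-26b-/- libraries.

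Other tissue next to the vessel also differed between libraries. The summed Schwann cell genes were at 282, 247 and 151 CPM in miRNA-26b-/- and 31.2 to 101 CPM in miRNA-26b+/+, with 7 of 8 tested genes higher at an unadjusted p under 0.05, beside 3.4% of all genes, and skeletal muscle genes (led by *Ckm* and *Acta1*) were at 43.9, 118 and 8.56 CPM against 4.38 to 14.0 CPM, with 8 of 9 higher. Adipocyte genes (led by *Cfd* and *Fabp4*) reached 3091 CPM in M2627. M2628, the library with the highest *Eln* and *Mfap4*, had the lowest Schwann cell and skeletal muscle sums of the miRNA-26b-/- libraries. Chondrocyte genes (led by *Comp* and *Acan*) summed to at most 175 CPM, and their defining genes *Col2a1* and *Cnmd* had at most 3 counts in every library, as did the Schwann cell gene *Pmp2*. Sympathetic neuron genes (led by *Uchl1* and *Stmn2*) summed to 95.9, 432 and 69.5 CPM in M2626, M2627 and M2628, against 101 to 154 CPM in miRNA-26b+/+. The sum was thus high in M2627 alone and below every miRNA-26b+/+ library in M2626 and M2628. In edgeR 5 of 9 neuron genes tested were higher at an unadjusted p under 0.05, beside 3.4% of all genes. Cardiac genes (led by *Myh6* and *Actc1*) reached 388 CPM in M2627, against at most 323 CPM in miRNA-26b+/+, and 0 of 7 tested were higher at that threshold in edgeR. Adipocyte, chondrocyte and red blood cell genes had 0 calls in edgeR, and red blood cell genes (led by *Hbb-bs* and *Hba-a1*) ran from 86.2 to 926 CPM. The part of these tissues in the results for the members was not tested.

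Without M2628 the values of *Fbln2*, *Fbln1* and *Fbn1* were different, while *Eln* and *Mfap4* stayed higher and *Fbln5* stayed uncalled (log2 fold change -0.08, adjusted p = 0.888 in edgeR). *Fbln2* was then lower in miRNA-26b-/-, with a log2 fold change of -1.22 ± 0.16 (SE) and an adjusted p of 0.000838 in edgeR, 11th of 15654 genes by p. *Fbln1* was at -0.57 ± 0.16 (adjusted p = 0.16) and *Fbn1* at -0.40 ± 0.15 (adjusted p = 0.299) on the log2 scale in the same edgeR fit, both with an unadjusted p under 0.05. *Eln* was at 0.34 ± 0.13 and *Mfap4* at 0.40 ± 0.14 on the log2 scale, with unadjusted p-values of 0.0172 and 0.0088. That makes 5 of 10 members with an unadjusted p under 0.05, beside 10.8% of all genes in that fit, and 1 with an adjusted p under 0.05, beside 0.524%. The endothelial and fibroblast sums given above, which are not part of the fit, were below every miRNA-26b+/+ library in M2626 and M2627. Their part in these values was not tested. M2628 was picked after its fibulin values were seen, and leaving it out kept only M2626 and M2627 in the miRNA-26b-/- group. The p-values and counts without it are thus descriptions. The log2 fold change of *Fbln2* in edgeR was -0.0080 without M2626 and -0.037 without M2627.

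Leaving out any 1 library kept *Eln* and *Mfap4* at an unadjusted p of at most 0.0217 and 0.0212. Over all 14 other settings tried the log2 fold change lay between 0.34 and 0.52 for *Eln* and between 0.39 and 0.55 for *Mfap4*. The 2 genes were past an unadjusted p of 0.05 in all 14, and their adjusted p ranged from 0.0414 to 0.983 for *Eln* and from 0.0381 to 0.984 for *Mfap4*.

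**Figure D4:**
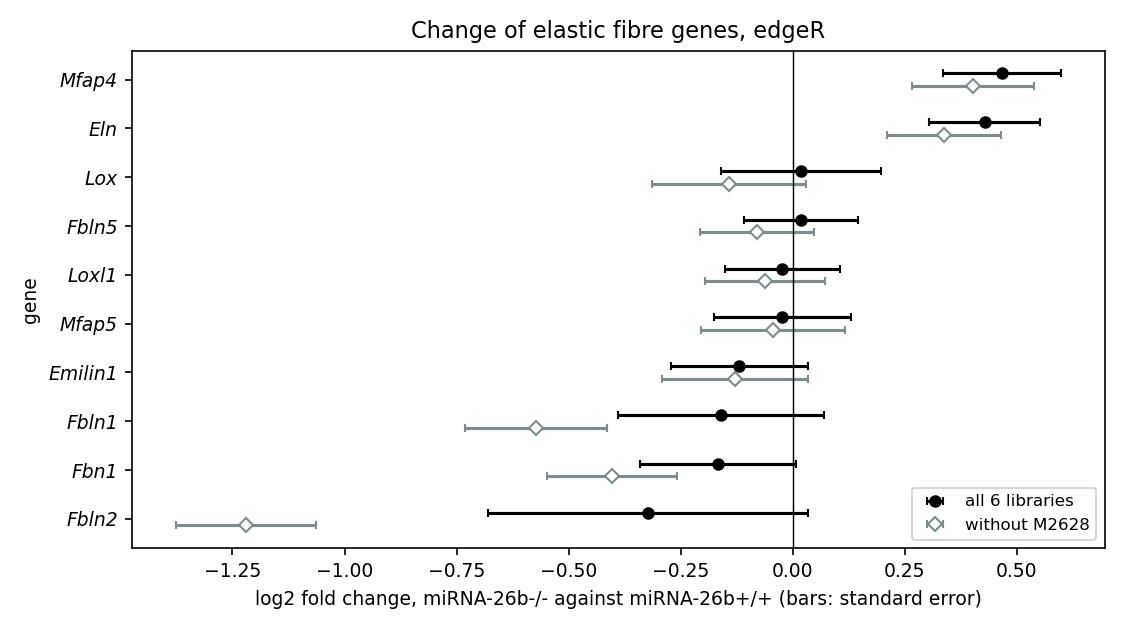
Log2 fold change of each gene, miRNA-26b-/- over miRNA-26b+/+, with its standard error, from all 6 libraries (filled) and without M2628 (open). M2628 was picked after its fibulin values were seen. *Eln* and *Mfap4* keep their place above 0, while *Fbln2* moves from -0.32 to -1.22 and *Fbln1* from -0.16 to -0.57.

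The remaining genes of fibre assembly, cross-linking, secretion and breakdown were called about as often as all genes. Of 71 genes in 4 lists 70 were in the table and 61 were tested, and 2 were higher and 2 lower in miRNA-26b-/- at an unadjusted p under 0.05, beside 6.47% of all genes tested, with 0 past adjustment in edgeR. The median log2 fold change of the 61 was -0.03, close to that of all genes.

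Among 24 other microfibril and fibre genes tested, *Adamts10*, which encodes a secreted protein that binds fibrillin and promotes microfibril assembly, was the 1 that was higher. It was at 70.6, 64.3 and 67.9 CPM in M2626, M2627 and M2628 and 44.8, 46.3 and 55.2 CPM in M2629, M2630 and M2631, with no overlap (log2 fold change 0.45 ± 0.19 SE, adjusted p = 0.736 in edgeR). The call was lost in 3 of 14 other settings, without M2626, M2629 or M2630, where the log2 fold change was 0.41, 0.38 and 0.43. *Ltbp2*, a microfibril protein of the latent TGF-beta binding family, was the 1 that was lower, at 136, 190 and 184 CPM against 196, 221 and 222 CPM. Its log2 fold change was -0.34 ± 0.16 (SE) with an adjusted p of 0.769 in edgeR, and the call was lost in 6 of 14 other settings. These were library size scaling, no CPM filter, the earlier quasi-likelihood method of edgeR and leaving out M2626, M2630 or M2631, with log2 fold changes of -0.21, -0.30 and -0.31 for the last 3. The most abundant of the list were *Ltbp4*, which is needed for elastin deposition, at 2163 ± 562 and 2314 ± 247 CPM (SD, n = 3 each), *Ltbp1* at 913 and 1013 CPM and *Thsd4*, a fibrillin-binding ADAMTS-like protein, at 667 and 699 CPM. None of these 3 differed in the test (p from 0.194 to 0.512 in edgeR), and in *Ltbp4* M2628 was again the highest library. Both *Ltbp1* and *Ltbp2* had every miRNA-26b-/- library below every miRNA-26b+/+ library. Groups did not overlap, in either direction, in 11.7% of all genes.

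Among 13 other cross-linking and copper genes, *Slc31a1*, the copper importer of the plasma membrane, was higher in miRNA-26b-/-. Lysyl oxidases need copper, which reaches them in the secretory pathway. *Slc31a1* was at 26.7, 46.3 and 31.8 CPM in M2626, M2627 and M2628 and at 18.4, 15.9 and 20.0 CPM in M2629, M2630 and M2631, without overlap. The log2 fold change was 0.95 ± 0.27 (SE) with an adjusted p of 0.731 in edgeR. *Loxl4*, another lysyl oxidase of low level here, was lower, with a log2 fold change of -0.94 ± 0.41 (SE) and an adjusted p of 0.748 in edgeR. Its groups overlapped, with 7.16, 4.53 and 16.7 CPM against 20.0, 16.1 and 16.5 CPM. The call was lost in 7 of 14 other settings, with DESeq2, with the earlier method of edgeR and without any library but M2628, the log2 fold change being -0.81 without M2626, -0.55 without M2627, -0.85 without M2629 and -0.98 without M2630 or M2631. Without M2628 it was -1.63, and *Slc31a1* was called in all 14. The 3 most abundant genes of the list were *Tgm2*, a transglutaminase, *Ppib*, a chaperone of collagen folding, and *Bmp1*, a protease that activates lysyl oxidase. Their log2 fold changes were -0.25, 0.13 and -0.13, with p from 0.0747 to 0.544 in edgeR.

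Of 7 secretion and receptor genes and of 17 elastases and inhibitors tested, 0 were called in edgeR at an unadjusted p under 0.05. In the first list *Pcolce* was at 242 ± 136 and 233 ± 31.7 CPM and *Ctsa*, part of the elastin receptor complex, at 229 ± 9.81 and 213 ± 28.0 CPM (SD, n = 3 each, miRNA-26b-/- first), and *Pcolce2* had a log2 fold change of -0.18. In the second list *Timp3*, an inhibitor of matrix metalloproteinases, was at 1807 ± 188 and 1961 ± 47.5 CPM, *Timp2* at 1307 ± 226 and 1345 ± 32.4 CPM, and the protease *Ctsb* at 1200 ± 85.4 and 1193 ± 33.6 CPM (SD, n = 3 each). The proteases *Mmp7* and *Ctsg* and the inhibitor *Serpina1a* had 0 CPM in all 6 libraries, as did *Fbn2*, the fibrillin of the embryo, and *Emilin3*.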

How the data were processed

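The authors aligned the reads (TruSeq RNA v2 libraries) with STAR to GRCm38 and deposited read counts per gene name, made with featureCounts 1.6.4 over GENCODE exons and unstranded, a read that overlapped several genes being assigned to all of them. The file header names GENCODE release M21, the study's methods release M23. The gene lengths deposited beside the counts are exon unions. Counts in a second deposited table differed in 0 values over 16340 genes. Its log2 CPM, fold change and p-value columns were not used.

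Genes whose counts summed to 2 or more, and whose level exceeded 1 CPM in 2 or more libraries, were tested on the counts with edgeR 4.0.16 in R 4.3.3 (TMM, quasi-likelihood test, two-sided, prior count 0.125, Benjamini-Hochberg over all genes tested), after testing on simulated data. CPM values given are scaled to the library's total, without TMM. Groups came from the genotype label, 1 library per mouse by the methods. Gene positions and 3′ UTRs are from GENCODE M21. Alternatives were other scaling, DESeq2 1.42.0, limma 3.58.1 voom, robust shrinkage, other CPM filters and leaving out each library. The earlier quasi-likelihood method of edgeR and the counts of members past the adjusted threshold were added after the data were seen. Named were the members, related genes with an unadjusted p under 0.05, the 3 most abundant of each related list, the 2 most abundant of marker lists, genes below the count floor of 3 and the 5 genes most like *Eln*. The members and lists were chosen with earlier results of these data known. Some marker genes that this rule names are not reported here. Protein sequences were not analysed here.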

Additional observations from a re-analysis of the deposited data

How the results depend on the processing

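No paired analysis was possible because the labels give no replicate numbers shared between the genotypes. Genes with an unadjusted p under 0.05 numbered 1036, and 686 to 1692 when 1 library was left out, the highest without M2628. Genes with an adjusted p under 0.05 numbered 1 in edgeR, 57 with DESeq2, 3 with limma voom, 3 with robust shrinkage, 0 with the earlier quasi-likelihood method of edgeR, and 0 to 82 when 1 library was left out. Members with an unadjusted p under 0.05 numbered 2 to 5 on leaving out 1 library and those past adjustment 0 to 1, the 5 and the 1 without M2628, whereas DESeq2 put 2 past adjustment, *Eln* (0.43 log2) and *Mfap4* (0.47 log2). Related genes with an unadjusted p under 0.05 numbered 4, 2 with the earlier method and 3 to 13 on leaving out 1 library, the 13 without M2628. On leaving out 1 library the log2 fold change ran from -1.22 to -0.0080 for *Fbln2*, -0.57 to 0.074 for *Fbln1*, -0.080 to 0.092 for *Fbln5*, -0.14 to 0.19 for *Lox*, -0.073 to 0.024 for *Loxl1*, -0.11 to 0.11 for *Mfap5* and -0.21 to 0.050 for *Emilin1*, so that the direction of the last 6 turned with 1 library. Without length, *Eln* made up 58.2% and *Mfap4* 9.09% of the members' summed level in miRNA-26b-/-. The causes of these changes were not tested. Depth does not limit the members, since each had over 100 CPM in every library, but 3 mice a group limit the precision, and reads that lack molecular identifiers can be PCR copies of 1 molecule.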

Other observations

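Over the 9764 genes with a mean of at least 10 CPM, profiles were compared with that of *Eln* by the root mean square difference of centred log2(CPM + 0.5) over the 6 libraries. The nearest were *Gatd1* (0.0533), *Dcaf10* (0.0594), *Mfap4* (0.0608), *Cyp27a1* (0.0658) and *Glis2* (0.0682). *Mfap4* was thus the 3rd nearest gene and the only member among the first 5. *Cyp27a1*, a mitochondrial sterol hydroxylase, was at 12.6, 15.5 and 19.4 CPM in M2626, M2627 and M2628 and at 11.2, 11.9 and 11.4 CPM in M2629, M2630 and M2631. *Glis2*, a zinc finger transcription factor, was at 62.8, 78.9 and 87.4 CPM against 62.0, 59.0 and 58.1 CPM. Of the other members *Fbln5* ranked 594th, *Mfap5* 1660th, *Loxl1* 1694th, *Lox* 2777th, *Emilin1* 3299th, *Fbn1* 4344th, *Fbln1* 6801st and *Fbln2* 9430th. The likeness rests on 6 libraries, 2 genotypes and 1 depth of sequencing, so it is a description.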
